A study of Oryza sativa with 6 samples.

Results

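The C3H genes of rice encode proteins with CCCH zinc fingers, in which 3 cysteines and 1 histidine hold a zinc ion. Members were all genes with C3H and a number as symbol or synonym in the gene table matched to the array, which gave 53 genes. Of these, 50 had probe sets of their own, 70 probe sets in all, among 17905 genes so covered by the array. C3H38, C3H56 and C3H67 had none and are not analysed here. The family was selected on the measured coi1-13 minus wild type differences of 2 of its members, C3H40 and one of the C3H2 probe sets, which had low signals on the coi1-13 arrays. The values of these 2 genes are therefore given as a description with no test, and tests are given for the other 48.

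CCCH fingers mostly contact RNA. Plant proteins of this class take part in mRNA decay, splicing, polyadenylation and translation, and some, in particular those with tandem fingers and an arginine-rich stretch, act in hormone, stress and senescence responses. C3H2 is the gene also known as OsDOS, whose product delays leaf senescence in rice. Others with a studied role include C3H20, the flowering promoter Ehd4, C3H46, the brassinosteroid pathway repressor LIC, C3H41, a makorin-type protein (MKRN), C3H60, the splicing factor subunit U2AF35A, and C3H12, which acts in resistance to bacterial blight.

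Young uppermost internodes, the elongating stem segment below the panicle, were compared between coi1-13, given in the labels as a mutant, and wild type plants of the cultivar Nipponbare. COI1 is the F-box protein that perceives jasmonate, a hormone of defence and growth. Each genotype had 3 biological replicates, each on 1 Affymetrix rice array, so 6 arrays in all. The labels give no plant age, no lesion for coi1-13, no treatment and no number of plants per replicate.

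The values are log2 signals as deposited. Their trimmed mean signals were near 500 on every array, so they appear to have been scaled to a common mean. The highest of 33 negative control probe sets lay between 5.26 and 5.56 on coi1-13 arrays and between 4.93 and 5.11 on wild type arrays, and a group with no array above its own highest control is called not above the negative controls. The COI1 genes do not check the labels: COI1A averaged 12.55 in coi1-13 and 12.65 in wild type, a difference that did not pass (adjusted p = 0.0582, limma). Of the 3 COI1 family genes, only COI1A was called lower under median centring and quantile normalization (limma, adjusted p = 0.0023 and 0.0452). Lower calls then made up 27.7% and 19.1% of all tested probe sets. The 3′ minus 5′ difference of the GAPDH control, a sign of RNA integrity, ran from 1.84 to 2.00 in coi1-13 and from 1.84 to 2.10 in wild type, and that of the actin control from 3.14 to 3.18 in coi1-13 and from 3.16 to 3.30 in wild type. The number of arrays, 3 per group, limits the precision. In whole internodes, fewer cells that express a gene and less RNA per cell cannot be told apart. Whether the probes match the RNA of both genotypes equally was not tested, as no probe sequences were used here.

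C3H40, on chromosome 6, had the lowest coi1-13 signal relative to wild type among the members. Its single probe set read 3.83, 3.17 and 3.61 on the 3 coi1-13 arrays, against 11.87, 11.79 and 11.76 on the 3 wild type arrays. All 3 coi1-13 values lay below the highest negative control of their array, while the wild type values were high and close together. The signal was at least 87.2-fold lower in coi1-13, taking the highest negative controls of those arrays as the limit of measurement. Over the array, 19 of 34355 tested probe sets had a measured difference as low or lower, C3H40 included.

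C3H2, on chromosome 1, was read by 2 probe sets that gave different pictures, one with an ID ending in _at and one in _s_at. The _at probe set read 7.76, 6.98 and 7.63 in coi1-13, against 12.61, 12.45 and 12.45 in wild type, a signal 33-fold lower. These coi1-13 values remained above the negative controls on all 3 arrays. A difference as low or lower was measured for 77 tested probe sets of the array, this one included. The _s_at probe set read 12.82, 12.72 and 12.86 in coi1-13, against 12.84, 12.92 and 12.92 in wild type, and its groups overlapped. The _s_at ending is the maker's mark for a probe set whose probes are shared by more than 1 transcript sequence. Taken within each array, the _s_at minus _at difference was larger by 4.95 on the log2 scale in coi1-13. This value rests on the low _at signals for which C3H2 was selected, so it is a description only. The reading of C3H2 in coi1-13 differs by probe set, and which one holds for the gene was not tested.

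**Figure D1:**
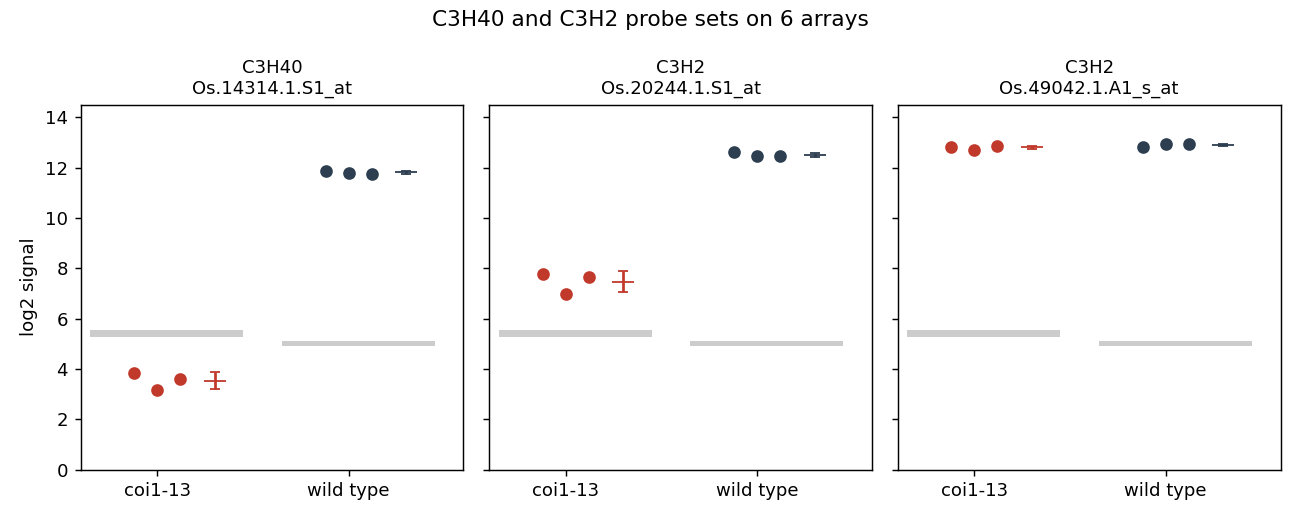
Log2 signal of the C3H40 probe set and both C3H2 probe sets on each array, with coi1-13 on the left and wild type on the right of each panel. Points are arrays, the bar beside them the mean and SD (n = 3), and the grey bands the range of each genotype's highest negative control: C3H40 lies below the band in coi1-13, at 3.17 to 3.83, and the _s_at probe set of C3H2 overlaps between genotypes.

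Outside these 2 genes, members were called higher and lower in about equal number. The other 48 genes had 67 probe sets, of which 60, covering 46 genes, entered the test and 7 were too dim. C3H1 and C3H47 had no tested probe set, and the other 5 dim ones belonged to C3H12, C3H17, C3H53, C3H55 and C3H63, each of which had another that was tested. Of the 60, 9 were higher in coi1-13, 8 were lower and 43 were not called (limma, Benjamini-Hochberg adjusted p under 0.05 over all 34355 tested probe sets). That is 28.3% called, against 35.9% of all tested probe sets and 44.6% of those with 1 gene. Higher calls made up 15%, against 16.5% of all, and lower calls 13.3%, against 19.4%. The groups did not overlap for 27 of the 60, or 45%, against 47.5% of all tested probe sets. They were apart upward for 14 and downward for 13, against a background of 22.1% and 25.4%. With each array centred on its median the calls became 7 higher and 18 lower, or 11.7% and 30%, against 10.8% and 27.7% of all tested probe sets, and the median difference over the array was -0.13, against -0.01 as deposited.

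The median difference of the 60 was -0.04, against -0.01 over all tested probe sets, and 53 of them, 88.3%, lay within 0.5 of 0 on the log2 scale, against 75.1% of all. None of the 17 called reached 2-fold, a size that 5.45% of all tested probe sets passed with a call. The measured differences of the 60 ran from -1.15 (C3H34) to 0.80 (C3H3), both of them dim and not called. That of C3H3 was -0.025 without wild type replicate 3 and 1.38 without wild type replicate 2. The typical SD between replicates was 0.078 in coi1-13 and 0.078 in wild type, as the median over the 60.

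**Figure D2:**
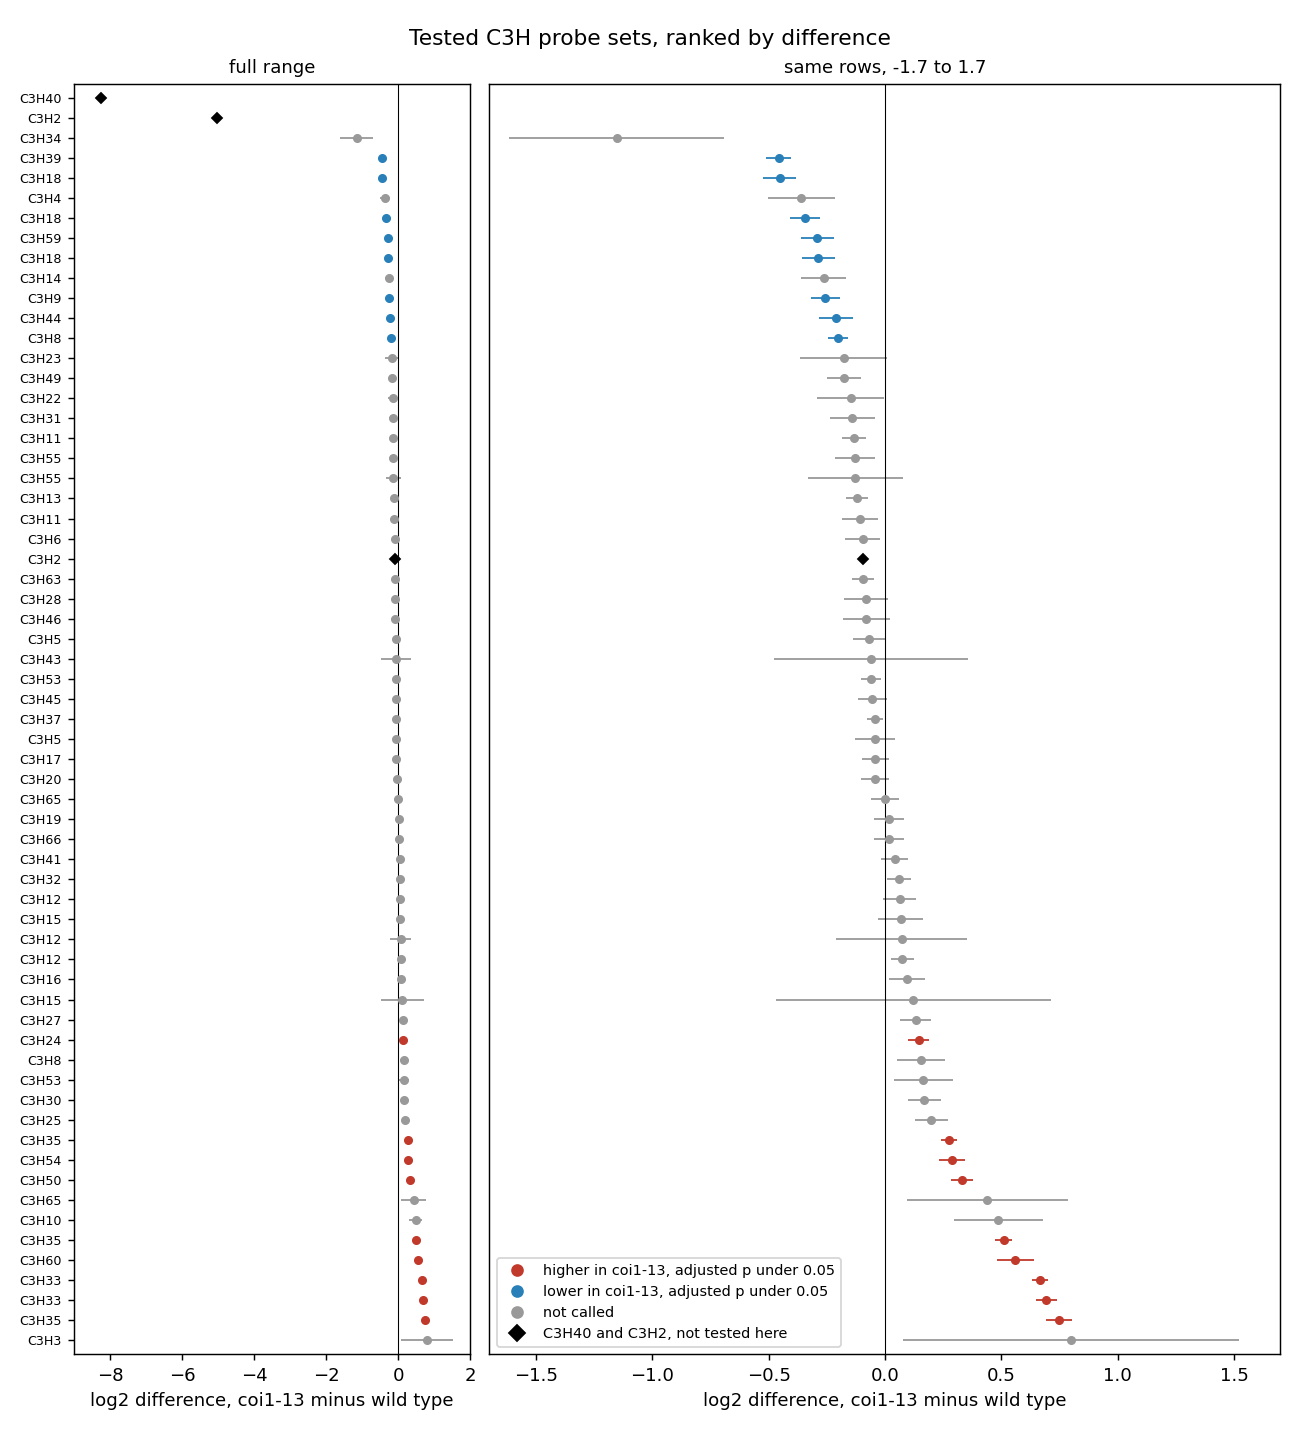
Difference in log2 signal, coi1-13 minus wild type, for the 63 tested C3H probe sets, one row each, ranked; the right panel repeats the rows on a narrower axis. Lines are standard errors of the fit, red marks higher and blue lower calls, and black diamonds the C3H40 and C3H2 probe sets on which the family was selected, C3H40 at its measured value although its coi1-13 signals lie below the negative controls. The called ones lie between -0.46 and 0.75.

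The 9 higher probe sets belonged to 6 genes: C3H33, C3H35, C3H60, C3H50, C3H54 and C3H24. C3H35 was read by a pair of probe sets from one sequence, ending in _at and _x_at, and by a further _at probe set. The largest rise was that of the _at probe set of the pair, at 12.60, 12.43 and 12.57 in coi1-13, against 11.88, 11.71 and 11.78 in wild type. The lowest coi1-13 array lay well above the highest wild type array. It rose 1.68-fold, by 0.75 ± 0.056 on the log2 scale (SE; adjusted p = 2.8e-06). The _x_at and the further _at probe set rose 1.42-fold and 1.21-fold (adjusted p = 1.8e-06 and 0.000165).

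C3H33 was likewise read by a pair of probe sets from one sequence. The _s_at one read 12.99, 13.05 and 12.99 in coi1-13, against 12.38, 12.33 and 12.32 in wild type. The _x_at one read 13.10, 13.22 and 13.19 in coi1-13, against 12.53, 12.49 and 12.41 in wild type. Both sets of values were apart between genotypes, and they rose 1.59-fold and 1.62-fold (adjusted p = 1.8e-07 and 8.0e-07). The _s_at and _x_at endings mark probes that may also match other sequences.

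C3H60 encodes U2AF35A, the small subunit of the factor that recognises the end of introns. It read 9.76, 10.06 and 9.81 in coi1-13, against 9.35, 9.30 and 9.29 in wild type. One coi1-13 array stood above the other two, and all 3 lay above wild type. It rose 1.47-fold, by 0.56 ± 0.080 (SE; adjusted p = 0.000289). C3H38, the gene of the sister subunit U2AF35B, was among those without a probe set.

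The remaining rises were smaller. C3H50 read 10.36, 10.34 and 10.40 in coi1-13, against 10.005, 10.04 and 10.05 in wild type, a 1.26-fold rise (adjusted p = 0.000323). C3H54 rose 1.22-fold, to 10.49 ± 0.038 in coi1-13 against 10.20 ± 0.076 in wild type (SD, n = 3 each; adjusted p = 0.00175, limma), and with each array centred on its median the difference was 0.17 and did not pass (adjusted p = 0.0659). C3H24 differed by 0.14, or 1.11-fold (adjusted p = 0.0271), the smallest change called in the family. Its call was lost without coi1-13 replicate 1 or 3 (adjusted p = 0.0866 and 0.0681) and without wild type replicate 1 or 3 (adjusted p = 0.0829 and 0.0768). Under median centring its difference was 0.025 (adjusted p = 0.795).

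The 8 lower probe sets also belonged to 6 genes, C3H39, C3H18, C3H59, C3H9, C3H44 and C3H8. C3H39 had the tightest replicates: 9.42, 9.45 and 9.43 in coi1-13, against 9.88, 9.88 and 9.91 in wild type. It fell by 0.46 ± 0.053 on the log2 scale (SE), or 1.37-fold, with adjusted p = 6.7e-05. C3H18 fell on all 3 of its probe sets, by 0.45, 0.34 and 0.29 (adjusted p = 0.000561, 0.00193 and 0.00978). Of these, the _x_at probe set read 10.22, 10.23 and 10.26 in coi1-13, against 10.60, 10.86 and 10.60 in wild type. One wild type array stood above the others, and the genotypes were apart on each of the 3 probe sets.

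C3H59 read 8.74, 8.72 and 8.75 in coi1-13, against 9.01, 8.96 and 9.10 in wild type, and fell 1.22-fold (adjusted p = 0.00861). C3H9 averaged 10.05 ± 0.10 in coi1-13 and 10.31 ± 0.063 in wild type (SD, n = 3 each), a 1.19-fold fall (adjusted p = 0.00886, limma). C3H8 fell 1.15-fold on one probe set (adjusted p = 0.00431), at 12.14 ± 0.053 in coi1-13 and 12.34 ± 0.060 in wild type (SD, n = 3 each; limma), and did not pass on another. The call of C3H44 was the weakest, a difference of -0.21 (adjusted p = 0.0450). It was lost without coi1-13 replicate 2 or 3 (adjusted p = 0.147 and 0.110), without wild type replicate 2 or 3 (adjusted p = 0.132 and 0.111) and under quantile normalization (adjusted p = 0.0653).

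**Figure D3:**
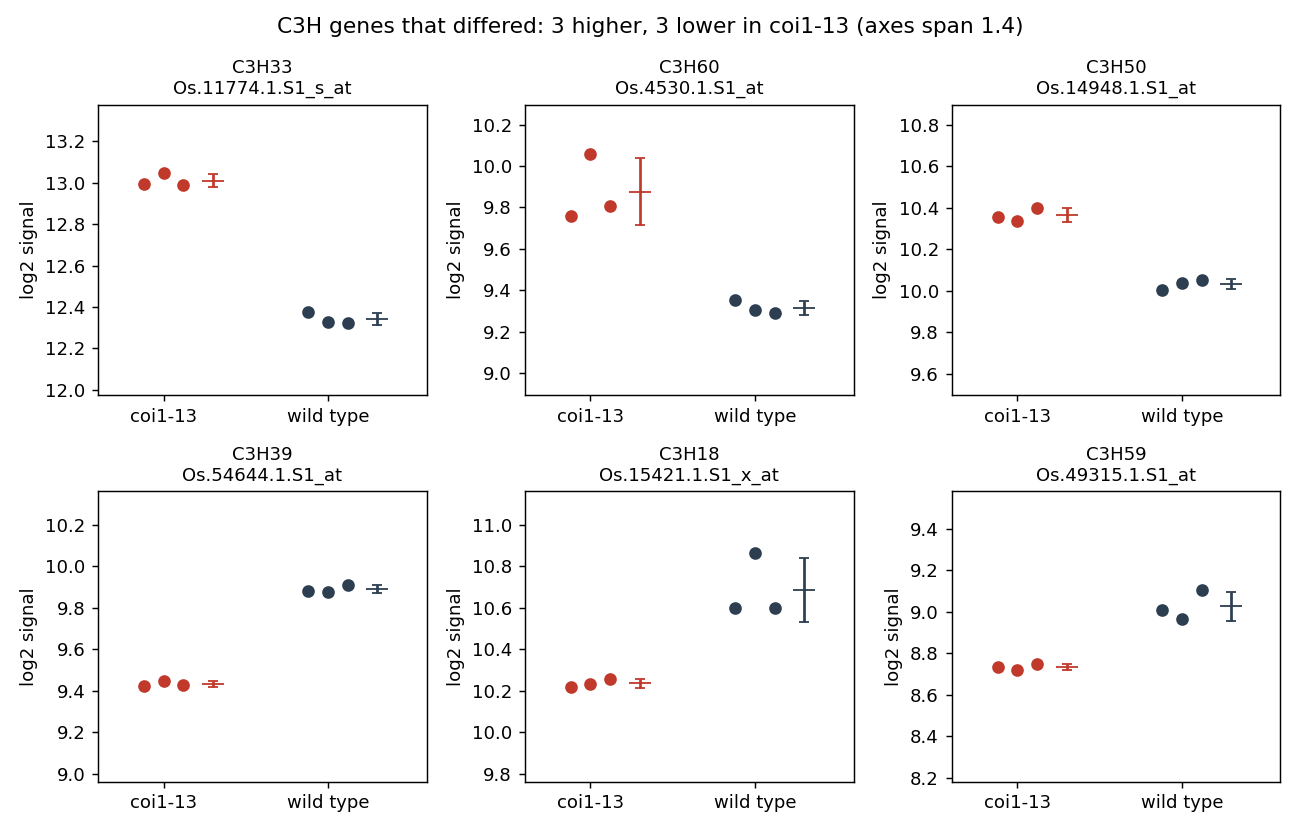
Log2 signal on each array for 6 called C3H genes, 1 probe set each, with coi1-13 left and wild type right in each panel. Points are arrays and the bar beside them the mean and SD (n = 3); every axis spans the same range, and in all 6 panels the genotypes are apart, from 9.42 to 9.45 against 9.88 to 9.91 for C3H39, for example.

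Apart from C3H60, the members named here for a studied role mostly were not called. They are a selection, and called members may have studied roles that are not named here. Ehd4 (C3H20) read 10.90, 10.77 and 10.89 in coi1-13, against 11.003, 10.87 and 10.80 in wild type (adjusted p = 0.648), and its groups overlapped. LIC (C3H46) averaged 8.40 ± 0.094 in coi1-13 and 8.48 ± 0.16 in wild type (SD, n = 3 each; adjusted p = 0.598, limma). MKRN (C3H41) differed by 0.041 (adjusted p = 0.639). For C3H12 the 3 tested probe sets differed by 0.075, 0.063 and 0.072, and none passed (adjusted p = 0.258, 0.537 and 0.876). C3H13, also named bip105, differed by -0.12 (adjusted p = 0.0762) with groups that did not overlap, and was called lower under median centring (adjusted p = 0.0153). C3H10, known from drought tolerance in rice, read 6.89, 6.74 and 7.03 in coi1-13, against 6.14, 6.59 and 6.46 in wild type. Its coi1-13 values all lay above wild type, but the difference of 0.49 ± 0.19 (SE) did not pass (adjusted p = 0.0729).

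C3H34 had the lowest difference outside C3H40 and C3H2. It read 5.02, 3.55 and 4.96 in coi1-13, against 5.53, 5.65 and 5.80 in wild type. Its signal exceeded the negative controls on 0 of 3 coi1-13 arrays and on all 3 wild type arrays, and was at least 1.23-fold lower in coi1-13, without passing the test (adjusted p = 0.0792). It was called lower under median centring (adjusted p = 0.0432) and quantile normalization (adjusted p = 0.0443). C3H47, known from drought and salt tolerance in rice, exceeded the negative controls on 0 coi1-13 arrays and on 1 wild type array, and C3H1 on 0 of either genotype.

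Different probe sets of one gene were compared by the difference in log2 signal within each array, in which a shift common to an array cancels. Over the whole array this gave 3516 pairs in 2773 genes, of which 3.95% changed unequally (limma, adjusted p under 0.05). The C3H genes other than C3H2 supplied 14 pairs in 11 genes, and 0 of them passed. At an unadjusted p under 0.05 there were 3, and a pair of C3H35 came closest. Its further _at probe set rose by 0.28, against 0.75 for the _at probe set of the pair, so their changes differed by -0.47 ± 0.095 (SE; adjusted p = 0.0540). That pair passed when only the upper 40% of probe sets by signal were kept (adjusted p = 0.0208) and on the log2(signal + 32) scale (adjusted p = 0.0321). C3H8 had one probe set called lower, at -0.20, and one at 0.15 that did not pass, and the inequality of -0.36 ± 0.14 (SE) did not pass either (adjusted p = 0.274). The C3H65 and C3H53 pairs differed in their changes by -0.44 ± 0.26 and -0.22 ± 0.13 (SE) and did not pass. For C3H33, C3H5 and C3H11 the inequality was 0.027 ± 0.062, -0.024 ± 0.098 and -0.026 ± 0.11 (SE). The pairs of C3H15 and C3H55 were too imprecise to read, with SEs of 0.54 and 0.28, and one C3H15 probe set exceeded the negative controls on 0 coi1-13 arrays. No C3H gene had probe sets called in opposite directions.

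**Figure D4:**
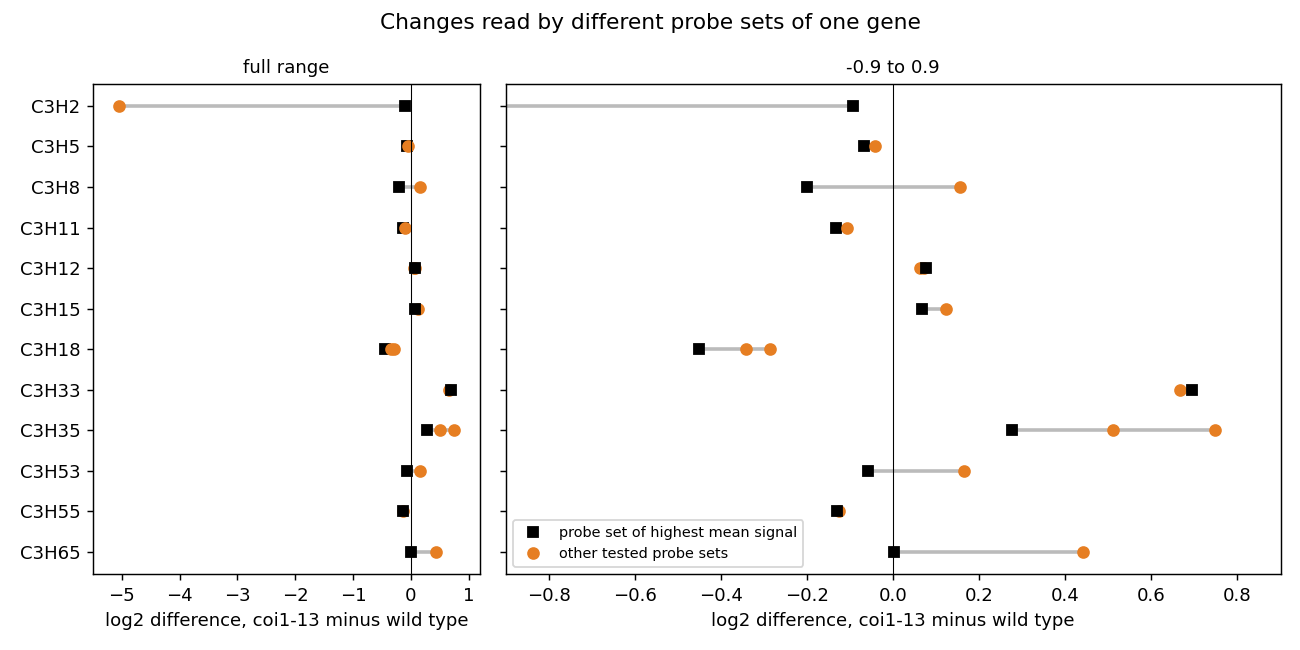
Difference in log2 signal, coi1-13 minus wild type, for each tested probe set of the 12 C3H genes with more than 1, in 2 panels of different range. Squares are the probe set of highest mean signal, circles the others, and the line joins probe sets of a gene: C3H2 spans -5.04 to -0.09, and the other 11 genes lie between -0.45 and 0.75.

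The places of C3H40 and C3H2 in gene order were set beside the readings of their neighbours. None of the 10 genes next to C3H40, 5 on each side, had a probe set of its own in the annotation. The nearest 5 on each side that did, up to 17 genes away, supplied 9 tested probe sets, of which 2 rose, 1 fell and 6 did not pass. Their differences ran from -0.26 to 0.78. Over all tested probe sets, 16.5% were called higher and 19.4% lower, and 44.6% of those with 1 gene were called in either direction. Around C3H2, 14 probe sets of the nearest 10 such genes were tested, of which 2 rose, 7 fell and 5 did not pass, with differences from -0.84 to 0.31. The lowest was that of the gene directly before C3H2, LOC4327303, which fell to 8.18 ± 0.23 in coi1-13, against 9.02 ± 0.046 in wild type (SD, n = 3 each; adjusted p = 0.000190, limma).

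**Figure D5:**
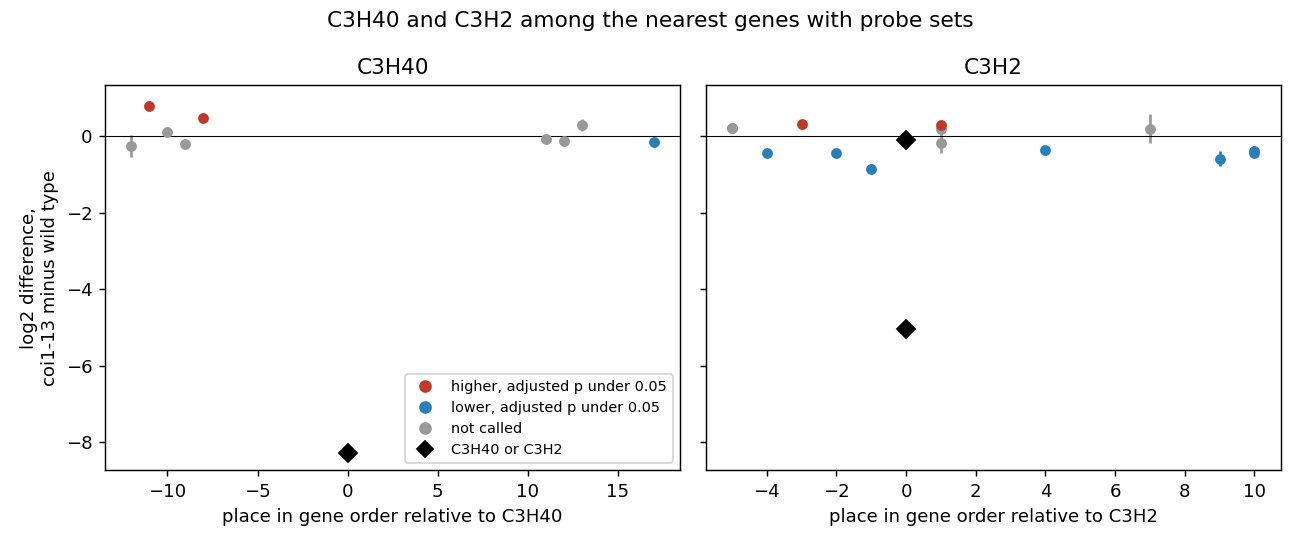
Difference in log2 signal, coi1-13 minus wild type, for probe sets of the nearest genes with a tested probe set around C3H40 (left) and C3H2 (right), by place in gene order. Bars are standard errors of the fit and black diamonds the measured values of the C3H40 and C3H2 probe sets. The neighbours run from -0.26 to 0.78 around C3H40 and from -0.84 to 0.31 around C3H2.

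Members that lie close together were few. C3H22 and C3H23, side by side on chromosome 3, differed by -0.15 and -0.18 and did not pass (adjusted p = 0.474 and 0.507). Neither value was stable: without 1 array that of C3H22 ran from -0.32 to -0.062, and that of C3H23 was 0.066 without coi1-13 replicate 3. C3H4, C3H5 and C3H6 lie on chromosome 1 with 3 and 4 annotated genes between them. C3H4 read 9.16, 9.51 and 9.45 in coi1-13, against 9.89, 9.37 and 9.94 in wild type, with 1 low wild type array, and did not pass (adjusted p = 0.0769). Without wild type replicate 2 its difference was -0.54 and was called (adjusted p = 0.00276). The C3H5 probe sets and C3H6 differed by -0.068, -0.043 and -0.095 and did not pass.

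Listed genes of RNA processes, most of them Argonaute genes, either fell or did not pass. They cover only some of the processes in which CCCH proteins act. Of 19 tested genes for Argonautes, SR splicing factors, the large U2AF subunit and a poly(A)-binding protein, 10 fell, 0 rose and 9 did not pass. Their median difference was -0.19, against -0.01 over all tested probe sets, of which 19.4% were called lower. Calls in either direction made up 44.6% of tested probe sets with 1 gene. Under median centring 13 of the 19 fell, where 27.7% of all tested probe sets were called lower and the array-wide median difference was -0.13. The Argonaute gene AGO1 averaged 10.12 ± 0.014 in coi1-13 and 10.52 ± 0.041 in wild type (SD, n = 3 each; adjusted p = 7.3e-05, limma). SC34, RSZ23 (both of the SR splicing factor type) and AGO4B fell by 0.26, 0.28 and 0.25. The partners of U2AF35A, U2AF65A and U2AF65B, differed by -0.043 and -0.11 and did not pass (adjusted p = 0.623 and 0.167), though U2AF65B was called lower under median centring (adjusted p = 0.0181).

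Genes of other zinc finger families were read beside the CCCH genes. Of 32 tested genes for SAP (A20/AN1), DOF, GATA, YABBY, ZHD and LOL proteins, 13 rose, 2 fell and 17 did not pass, with a median difference of 0.12. Calls in either direction made up 44.6% of all tested probe sets with 1 gene, and higher calls 16.5% of all tested. Under median centring 8 of these genes rose and 7 fell, with a median of 0.0049. Of all tested probe sets, 10.8% were then called higher and 27.7% lower, with a median of -0.13. The SAP genes encode stress-associated proteins: SAP11, SAP17 and SAP1 rose 1.90-fold, 1.71-fold and 1.33-fold (adjusted p = 4.0e-05, 1.3e-05 and 2.9e-05). YAB1, a YABBY transcription factor gene, fell 1.28-fold (adjusted p = 1.4e-05).

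Since OsDOS is a brake on leaf senescence, genes of chlorophyll breakdown and senescence were read beside C3H2. The planned list named more genes, but only 5 were found by name, so they cover only part of senescence. Of these 5, all tested, 4 rose, 0 fell and 1 did not pass, with a median difference of 0.87. The 4 that rose are genes of chlorophyll breakdown. Over all tested probe sets 16.5% were called higher and the median was -0.01, and 44.6% of those with 1 gene were called in either direction. Under median centring 3 of these 5 genes rose, where 10.8% of all tested probe sets were called higher and the array-wide median difference was -0.13. SGR, the stay-green gene needed to start chlorophyll breakdown, read 11.37, 11.35 and 11.32 in coi1-13, against 9.999, 10.01 and 10.05 in wild type, and rose 2.51-fold (adjusted p = 8.2e-09). RCCR1, for a red chlorophyll catabolite reductase, and NYC1, for a chlorophyll b reductase, rose 2.07-fold and 1.82-fold (adjusted p = 2.1e-07 and 3.2e-07). NOL, the partner of NYC1, rose 1.2-fold (adjusted p = 0.00345), which did not pass after centring on the median (0.14, adjusted p = 0.15). SAG12, a late senescence marker, exceeded the negative controls on 0 coi1-13 arrays and on 1 wild type array. Any relation between these genes and C3H2 was not tested.

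Tissue markers also differed between the genotypes, read against 16.5% called higher and 19.4% called lower over all tested probe sets. Of those with 1 gene, 44.6% were called in either direction. Anther and pollen genes fell in 8 of 11 cases and rose in 0, with a summed signal of 43553 to 47114 per coi1-13 array against 55442 to 56460 per wild type array. The falls ran from 1.08-fold (C6) to 8.22-fold (CYP703A3). The brightest of these genes, RTS, averaged 14.29 in coi1-13 and 14.40 in wild type. Leaf genes rose in 3 of 5 cases and fell in 1 (64042 to 66579 in coi1-13, against 54352 to 56250 in wild type). Under median centring and quantile normalization the leaf genes counted 3 that rose and 2 that fell, as CAB2R was then called lower (limma, adjusted p = 0.0049 and 0.0186). Of all tested probe sets, 10.8% and 16.7% were called higher under these settings, and 27.7% and 19.1% lower. Stem and secondary wall genes fell in 5 of 6 cases and rose in 1 (31953 to 34626 in coi1-13, against 38284 to 39981 in wild type). By its probe set of highest signal, each marker exceeded the negative controls on at least 2 arrays of each genotype. The part of tissue makeup in the C3H readings was not tested.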

How the data were processed

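Total RNA of young uppermost internodes was biotin-labelled and hybridised to 6 Affymetrix rice arrays, 3 of coi1-13 and 3 of wild type, grouped by the labels. The authors deposited log2 signals of 57381 probe sets, made with GCOS 1.4 per the submitters' processing notes; no further step is given in the sources used here. Taken as powers of 2, the signals had a mean near 500 on each array after trimming 2% at each end.

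Probe sets were named through the platform's gene IDs and the gene names of RefSeq (assembly ASM3414082v1), with no use of its coordinates beyond gene order. Of 57258 probe sets other than controls, 22436 had 1 gene; those with several (95) or none (34727) were left out of the family. Limma 3.58.1 in R 4.3.3 (lmFit, eBayes with trend) was fitted to the deposited log2 values over 34355 probe sets, those with the highest 60% of mean signals (at least 4.37), with Benjamini-Hochberg adjustment over all of them. In 2 groups of 3, p-values weigh the genotype difference against the spread between the labelled biological replicates, moderated over all tested probe sets. A second fit, with the same settings, took differences between pairs of probe sets of one gene. Its variance trend therefore followed the mean difference of a pair, which is not a signal level. Without the trend 0 C3H pairs passed, and the closest pair of C3H35 had adjusted p = 0.0676 (limma).

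The members, lists and tests were chosen with earlier results of these data known. Named were C3H40, C3H2, called members whose groups did not overlap, and members with several probe sets or a studied role. Of the RNA process, other zinc finger and senescence lists, the 4 genes of smallest p were named (SAG12 and the U2AF65 genes outside this rule). In these lists each gene was read by its probe set of highest mean signal. Tissue markers were given mainly as counts: C6 and CYP703A3 were named for the size of their falls, RTS for its signal and CAB2R for its change of call. Genes sharing a list's letters but not its identity were removed. The nearest genes with probe sets were added after the first neighbours proved to have none around C3H40. Grouping by CCCH motifs was not run, as no protein sequences were used here. The fits were tested on simulated data.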

Additional observations from a re-analysis of the deposited data

How the results depend on the processing

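The counts of C3H probe sets other than those of C3H40 and C3H2, 9 higher and 8 lower, were recomputed under each alternative. They became 7 higher and 18 lower under median centring, where the array-wide median was -0.13, and 8 higher and 5 lower without the variance trend. Requiring at least 2-fold left 0 higher and 0 lower. Arrays with the same replicate number did not deviate together over the tested probe sets (correlations of -0.0029, 0.0011 and 0.00042). Whether they were grown or processed together is not known from the labels. With the replicate block the counts were 9 and 8 with 0 unequal pairs. There C3H24 and C3H44 lost their calls (limma, adjusted p = 0.0583 and 0.0796), and C3H14 and C3H25 gained one. Leaving out 1 array gave 8 to 10 higher, 7 to 10 lower and 0 to 0 unequal pairs; unequal pairs numbered 1 in the upper 40% by signal and 1 on the log2(signal + 32) scale. Of the 17 calls, 12 held under 13 alternatives, all but the 2-fold rule. Without the variance trend C3H8, C3H9, C3H24 and C3H44 were lost (adjusted p = 0.0537, 0.0525, 0.0830 and 0.0969); C3H44 was also lost with no filter on dim probe sets (adjusted p = 0.0622). Of 43 probe sets not called, 11 were called under at least 1 alternative, among them C3H14 without coi1-13 replicate 2 or wild type replicate 1 (adjusted p = 0.0227 and 0.0328), C3H25 without coi1-13 replicate 3 or wild type replicate 2 (adjusted p = 0.0465 and 0.0285) and C3H11 without wild type replicate 1 (adjusted p = 0.0343). The measured C3H40 difference ran from -8.42 to -6.37 (on the log2(signal + 32) scale), and that of the lower C3H2 probe set from -5.19 to -4.81. Apart from the construction of the 2-fold rule, the cause of these shifts was not tested. Signals near the negative controls, as for C3H34, C3H43, C3H3 and C3H15, limit what their differences can show.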
